A study of Homo sapiens with 6 samples.

Results

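APELA, APLN and APLNR encode the 2 peptide ligands of the apelin receptor and the receptor itself. They were taken by symbol, as 3 of the 26364 genes with a value in the RNAseq data of A673/TR/shEF Ewing sarcoma cells, and they were chosen because the difference of APELA between the groups was already known. For that reason their values are described library by library, and no test is given for them. APELA and APLN passed the filter on low values, a mean of at least 0.5 FPKM over the 6 libraries, APLN only through its values after knockdown. APLNR, with a mean of 0.236 FPKM, did not pass it. FPKM, fragments per kilobase of transcript, here scaled by a factor for each library (its size factor), corrects for length. Levels of different genes can therefore be set side by side.

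A673 is a cell line from an Ewing sarcoma, a tumour of bone and soft tissue driven by the fusion transcription factor EWSR1::FLI1. All 6 samples carried the tetracycline repressor and the doxycycline-inducible shRNA against the chimeric mRNA. The 3 EWSR1::FLI1 high samples were untreated, and the 3 EWSR1::FLI1 low samples received doxycycline at 1 µg/mL for 72 h. No sample with doxycycline but without the shRNA was analysed here, so effects of the drug and of the knockdown cannot be told apart. The labels number the samples of each group as experiments, whereas the design text speaks of independent clones. Which of these holds was not settled, and p-values then measure only the spread between these samples, which may be technical.

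The apelin receptor is a G protein-coupled receptor of class A with sequence similarity to the angiotensin II receptors. It couples to inhibitory G proteins and beta-arrestins, and it is known for its roles in heart development, vessel growth and blood pressure. Its ligands are both secreted peptides cut from short precursors, apelin (APLN) and ELABELA, also called Toddler (APELA). APLN is made in adipose tissue, endothelium and many other tissues, while APELA is made mainly in pluripotent cells, early embryos, placenta and kidney. FLI1 binds DNA through an ETS domain that reads the core motif GGAA, and the fusion protein is known to occupy tandem repeats of this motif, which then act as enhancers.

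Because the fusion reads such repeats, the sequence around the gene starts is shown first. In GENCODE v44 lifted to GRCh37, APELA (ENSG00000248329) lies on the plus strand at chr4:165798330-165820117, with 3 exons in a transcript of 2432 bases. Only 162 of these bases code, in exons 1 and 2, for a precursor of 54 residues, and exon 3 with 2112 bases is non-coding. APLN (ENSG00000171388) lies on the minus strand at chrX:128779236-128788933, with 3 exons, 3224 transcript bases and a precursor of 77 residues. APLNR (ENSG00000134817) is a single-exon coding gene of 380 residues on the minus strand at chr11:57001051-57004724. No other gene in this annotation overlaps any of the 3 genes, so it holds no antisense partner for them. Transcripts that it does not list were not examined.

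Some of the longest tandem repeats near the ligand genes are printed here. Each is from the plus strand of the GRCh37 reference with 30 bases on either side, and with the repeated motif in capitals.
APELA, 3805 bp upstream of the start, chr4:165794468-165794583: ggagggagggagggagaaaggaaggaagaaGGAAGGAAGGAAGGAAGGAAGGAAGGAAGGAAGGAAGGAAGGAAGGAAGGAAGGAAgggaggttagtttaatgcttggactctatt
APELA, 24565 bp upstream, chr4:165773712-165773819: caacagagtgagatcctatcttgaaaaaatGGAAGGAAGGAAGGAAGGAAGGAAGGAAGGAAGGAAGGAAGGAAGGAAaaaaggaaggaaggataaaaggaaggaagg
APELA, 50776 bp upstream, chr4:165747499-165747610: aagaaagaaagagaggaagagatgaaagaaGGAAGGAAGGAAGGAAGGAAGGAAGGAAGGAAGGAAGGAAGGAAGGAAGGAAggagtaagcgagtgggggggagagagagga
APLN, 47923 bp downstream of its start, chrX:128740953-128741068: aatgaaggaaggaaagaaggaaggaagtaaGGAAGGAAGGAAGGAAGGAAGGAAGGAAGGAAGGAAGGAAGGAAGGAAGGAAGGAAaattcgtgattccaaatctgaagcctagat

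The repeat nearest to APELA held 14 copies of GGAA, and the repeats 24565 and 50776 bp upstream held 12 and 13 copies. Another run of 12 copies, not printed, lay 50495 bp upstream. Within 100000 bp on either side of its start, APELA had 7 runs of at least 4 copies on either strand, 6 of them upstream and none inside an annotated gene. APLN also had a run of 14 copies and upstream runs of 8 and 11 copies, 60946 and 96662 bp away, and its nearest run, with 4 copies, stood 47496 bp from its start. APLNR had 2 runs of 5 and 4 copies about 87818 bp away. Runs of this kind are common at that distance, since 54.6% of 18085 protein-coding genes had at least 1 within 100000 bp, and 7.6% had one of 14 copies or more. Close to the start they are rarer. Within 5000 bp of the start, a window set after the APELA run had been seen, 3.71% of these genes had any run, and 54 genes (0.299%) had one of at least 14 copies, like APELA. These are letters of the reference genome, in which a match is no binding site, and the copy number of the alleles in A673 was not measured. The map of repeats by distance shows all runs of the 3 genes.

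**Figure D1:**
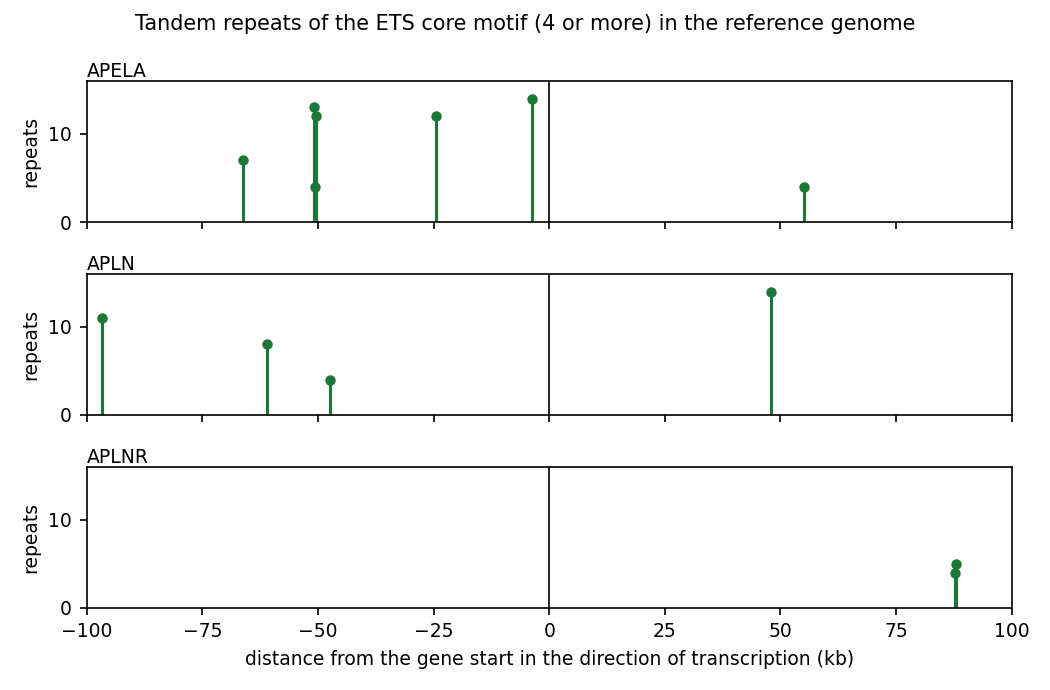
Runs of at least 4 tandem copies of the ETS core motif within 100000 bp of the start of APELA, APLN and APLNR in the reference genome, with the number of copies on the vertical axis and the distance from the gene start in the direction of transcription, in kb, on the horizontal axis. APELA has 7 runs, of which one with 14 copies lies 3805 bp upstream, whereas the nearest run to APLN is 47496 bp away and those near APLNR have 5 and 4 copies.

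The region just upstream of APELA is given next, from RefSeq on GRCh38.p14 at chr4:164876928-164877177, plus strand, with each GGAA and its reverse complement TTCC in capitals.
APELA, 250 bases before the start: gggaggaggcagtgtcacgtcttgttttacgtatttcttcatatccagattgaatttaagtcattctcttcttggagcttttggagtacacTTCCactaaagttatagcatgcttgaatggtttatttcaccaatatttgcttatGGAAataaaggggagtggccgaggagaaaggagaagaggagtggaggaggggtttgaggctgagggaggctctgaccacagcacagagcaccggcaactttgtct

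These 250 bases held 1 GGAA and 1 TTCC, without any tandem copy. Of 35116 RefSeq promoters of the same length, 76.5% held at least 2 matches on either strand, and the median was 3, so the single motifs do not set APELA apart. The APLN promoter also held 2 matches. The bases upstream of APELA had a GC content of 45.2%, against 67.6% for APLN.

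Before the values are read, the libraries need a description. Reads on genes, recovered from the FPKM, numbered 7800264 to 10264638 in the EWSR1::FLI1 high and 6980361 to 16658933 in the EWSR1::FLI1 low group. The marker checks went with the labels. FLI1, whose 3' part is also part of the fusion transcript, fell from 12.7 ± 1.43 to 3.63 ± 0.696 FPKM (SD, n = 3 per group). By limma (Benjamini-Hochberg adjusted p under 0.01), 5 of 6 Ewing sarcoma markers, FLI1 among them, were lower after knockdown, beside 3.37% of all genes tested. The summed level of the 6 markers was 392 to 420 FPKM before knockdown against 143 to 147 FPKM after. EWSR1::FLI1 low replicate 1 stood apart among genes that should be silent. The median FPKM of 378 olfactory receptor genes, a reference chosen after the data were seen, was 0.481 in this library and 0.190 to 0.302 in the other 5. This library also had the fewest genes at 0, 2906 against 3208 to 4274. The low levels of APLN and APLNR are therefore also given without it.

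The level of APELA separated the groups. In the EWSR1::FLI1 high libraries, replicates 1, 2 and 3, it stood at 14.8, 15.3 and 18.1 FPKM, on 408, 319 and 367 reads. After knockdown the levels were 0.858, 0.326 and 0.465 FPKM in replicates 1, 2 and 3, on 20, 7 and 19 reads. Every EWSR1::FLI1 low library lay far below every EWSR1::FLI1 high library, and the groups did not overlap. EWSR1::FLI1 low libraries lay below without overlap for 23.6% of the 15504 genes tested and above for 17.5%, so an absence of overlap alone is common in these data. The means were 16.1 ± 1.76 and 0.549 ± 0.276 FPKM (SD, n = 3 per group), a level 29.2 times as high before knockdown as after. Without EWSR1::FLI1 low replicate 1, the ratio was 40.6. These are bulk samples, in which fewer cells with the RNA and less RNA per cell cannot be told apart.

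On the log2(FPKM + 1) scale, which understates changes of low genes, APELA differed by -3.47, against a spread within groups of 0.20 (SD). Only 4 of the genes tested had a larger decrease, and 45 genes, APELA counted, had a difference of at least this size in either direction. The median difference of all genes tested was -0.05. By limma 522 genes were lower in EWSR1::FLI1 low, 3.37% of the genes tested, and 700 were higher, 4.51%. APELA was chosen on this contrast, and its place in that order is given as a description.

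**Figure D2:**
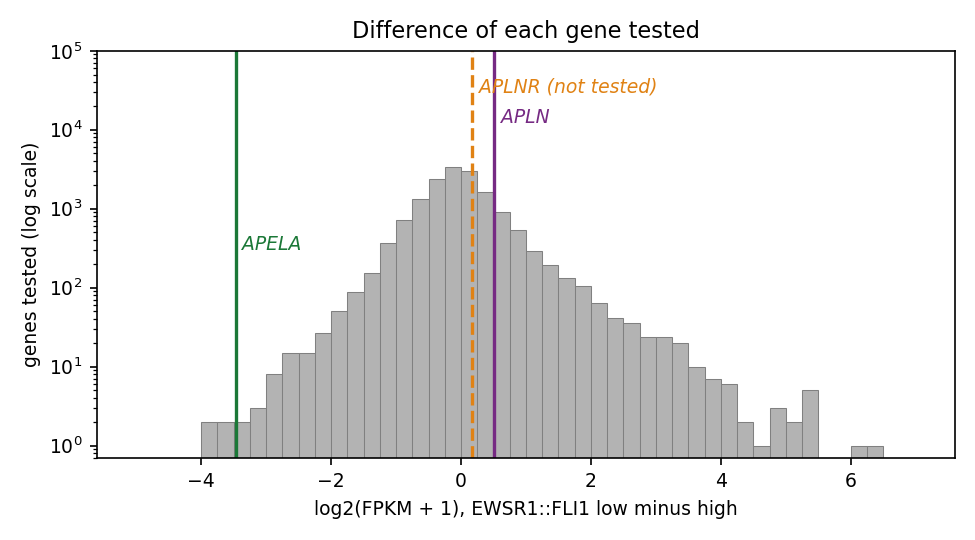
Difference between EWSR1::FLI1 low and EWSR1::FLI1 high of the 15504 genes tested, on the log2(FPKM + 1) scale, with the number of genes on a logarithmic vertical axis. Lines mark APELA at -3.47 in the left tail, APLN at 0.51 and APLNR, not among the genes tested, at 0.17.

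Before knockdown APELA was a gene of moderate level, above 67.7% to 69.9% of the genes tested in the 3 libraries. After knockdown it stood above 9.87%, 3.29% and 8.89% of them in replicates 1, 2 and 3. The residual signal lay near that of silent genes, at 1.78, 1.25 and 2.45 times the median olfactory receptor gene of the same library, compared with 49.0, 57.5 and 66.8 times before knockdown. In EWSR1::FLI1 low replicates 1, 2 and 3, 78.3%, 54.0% and 88.6% of the olfactory receptor genes lay below APELA. The 7 to 20 reads were above the floor of 3 reads, which corresponded to 0.0734 to 0.148 FPKM in the 6 libraries. At this depth APELA was thus counted after knockdown, at a level that some of the silent reference genes also reached.

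APLN was higher after knockdown, at far lower levels. Its 3 libraries with high fusion levels, replicates 1, 2 and 3, gave 0.236, 0.467 and 0.400 FPKM, on 8, 12 and 10 reads. The 3 libraries after knockdown gave 1.33, 0.908 and 0.657 FPKM in the same order of replicates, on 38, 24 and 33 reads. The lowest EWSR1::FLI1 low library lay above the highest EWSR1::FLI1 high library, a pattern shared with 17.5% of the genes tested. The group means were 0.368 ± 0.119 and 0.963 ± 0.338 FPKM (SD, n = 3 per group), a ratio of 2.62, and the log2 difference was 0.51 with a spread within groups of 0.20. The highest value of APLN came from EWSR1::FLI1 low replicate 1, the library with the raised silent genes. Without this library the ratio was 2.13 and the log2 difference 0.38. Against the silent genes of the same library, APLN stood at 0.782, 1.76 and 1.48 times the median olfactory receptor gene before knockdown and at 2.76, 3.48 and 3.46 times after, and on that measure replicate 1 was the lowest of its group. Among the genes tested, 2366 had a larger increase than APLN.

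The receptor was hardly counted. Without doxycycline, APLNR had 0.221, 0.129 and 0.133 FPKM in replicates 1, 2 and 3, on 9, 4 and 4 reads. With doxycycline it had 0.406, 0.377 and 0.149 FPKM in replicates 1, 2 and 3, on 14, 12 and 9 reads. EWSR1::FLI1 low replicate 3, the deepest library, lay inside the range of the EWSR1::FLI1 high group, so the groups overlapped. The means were 0.161 ± 0.0519 and 0.311 ± 0.141 FPKM (SD, n = 3 per group), with a ratio of 1.93 that became 1.63 without EWSR1::FLI1 low replicate 1. In 5 of the 6 libraries APLNR lay below the median olfactory receptor gene, at 0.488 to 0.845 times its level, and in EWSR1::FLI1 low replicate 2 it lay at 1.45 times. A difference of APLNR between the groups was not tested, and 4 to 14 reads per library are too few to settle it. All 3 libraries of each group, for each of the 3 genes, are set beside the silent genes in the plot of FPKM by library.

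**Figure D3:**
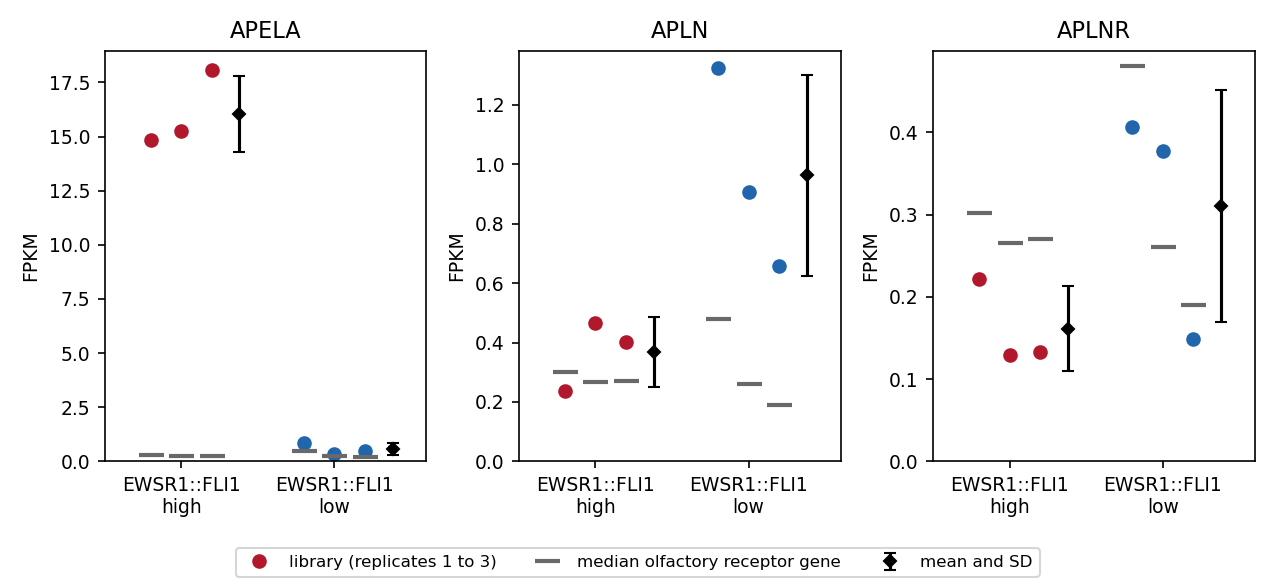
FPKM of APELA, APLN and APLNR in each library (points, red for EWSR1::FLI1 high and blue for EWSR1::FLI1 low, replicates 1 to 3 from left to right), with the group mean and SD (diamond and bar) and the median of 378 olfactory receptor genes in the same library (grey line); each panel has its own linear scale. APELA lies between 14.8 and 18.1 FPKM in the EWSR1::FLI1 high and at or below 0.858 FPKM in the EWSR1::FLI1 low libraries, the 3 values of APLN after knockdown lie above the other 3, and the APLNR groups overlap.

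The order of the genes within a library changed for the ligands. In EWSR1::FLI1 high replicates 1, 2 and 3, APELA stood at 62.7, 32.7 and 45.1 times the level of APLN. In EWSR1::FLI1 low replicates 1, 2 and 3 it stood at 0.647, 0.359 and 0.708 times that level. APELA thus led in every library before knockdown, and APLN in every library after it. APELA made up 97.0% to 98.4% of the summed FPKM of both ligands before and 26.4% to 41.5% after knockdown. The sum itself went from 15.1, 15.7 and 18.5 FPKM to 2.18, 1.23 and 1.12 FPKM, so the higher APLN values did not make up for the lower APELA values. With 7 to 38 reads per ligand after knockdown, the order there rests on few reads. APLNR was the lowest of the 3 genes in 5 libraries, and in EWSR1::FLI1 low replicate 2 it was above APELA, at 0.377 against 0.326 FPKM on 12 and 7 reads.

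**Figure D4:**
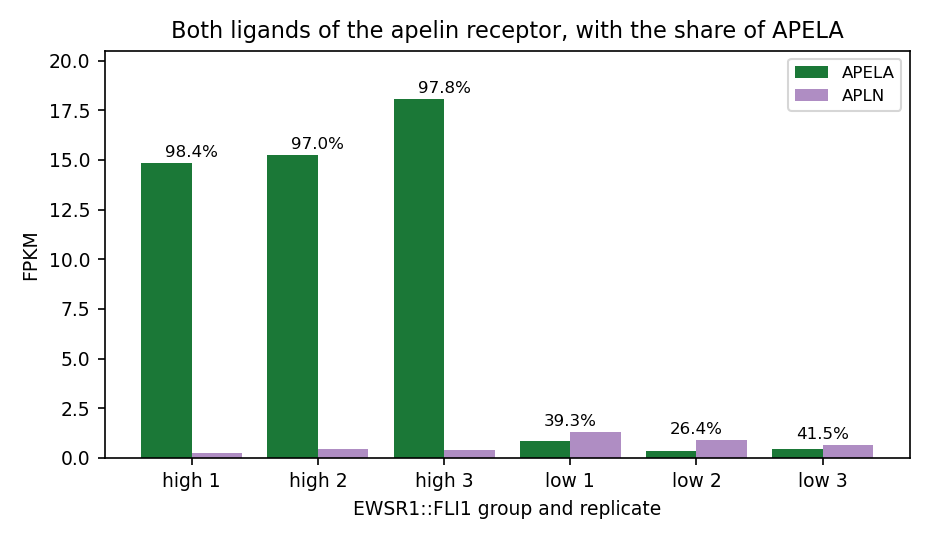
FPKM of APELA and APLN side by side in each library, on a linear axis that starts at 0, with the share of APELA in the sum of both ligands above each pair of bars. The share lies between 97.0% and 98.4% in the 3 EWSR1::FLI1 high libraries and between 26.4% and 41.5% in the 3 EWSR1::FLI1 low libraries.

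The genes next to APELA, APLN and APLNR were looked up by position, where needed by an older symbol. On the lower side of APELA, MARCH1 (now MARCHF1), a ubiquitin ligase gene 493128 bp away, went from 5.04 to 2.18 FPKM, a log2 fold change of -0.92 (SE 0.16, adjusted p = 0.00468 by limma), a call lost in 6 of 14 alternative settings. SMIM31, listed as LINC01207 and 73383 bp away, was not tested at means of 0.549 and 0.441 FPKM. On the other side TRIM61, 55481 bp away, had means of 1.98 and 1.89 FPKM and a log2 fold change of -0.02 (adjusted p = 0.953 by limma), and TRIM60 was not tested. The nearest genes to APELA on either side therefore gave no call, whereas one farther away was lower. Beside APLN, OCRL and SMARCA1 had log2 fold changes of 0.03 and 0.19 (adjusted p = 0.924 and 0.448 by limma), and XPNPEP2 and SASH3 were not tested. Beside APLNR, LRRC55, TNKS1BP1 and SSRP1 had log2 fold changes of -0.17, 0.50 and -0.92 (adjusted p = 0.626, 0.259 and 0.0157 by limma), none under 0.01, although SSRP1 passed that limit in 5 alternative settings, and OR5AK2 was not tested.

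The tandem repeats were also counted around the genes called, as a description without a test. Of 12404 protein-coding genes tested, 411 (3.31%) had a run of at least 4 copies within 5000 bp of the start. Of 450 called lower, 41 (9.11%) had one, and of 639 called higher, 21 (3.29%). Runs of at least 14 copies, a number set by APELA itself, stood near 30 of the genes tested (0.242%). They stood near 7 of those called lower (1.56%), with APELA counted, and near 0 of those called higher. APELA is also among the 41. Because it was chosen on this contrast, its place in these counts is no separate result. At so low a share, the 0 says little.

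The genes with the profile most like that of APELA were found by the Pearson correlation of log2(FPKM + 1) over the 6 libraries, which share the 2 groups, so that any gene with a large and even difference scores high. They were FEZF1 (r = 0.999), ANKRD24 (r = 0.998), HIST1H1D (r = 0.998), SLC24A3 (r = 0.998) and ZC3H13 (r = 0.998), and 60 genes had an r above 0.99. FEZF1, a zinc finger repressor of the developing forebrain, went from 32.0 to 1.68 FPKM. ANKRD24 went from 9.12 to 0.765 FPKM, and the linker histone gene HIST1H1D from 227 to 79.6 FPKM. For APLN the genes were CA5B (r = 0.99), PIPOX (r = 0.987), XXYLT1-AS2 (r = 0.987), SYT12 (r = 0.985) and SPATA1 (r = 0.984), and no gene had an r above 0.99. All 5 had their highest value in EWSR1::FLI1 low replicate 1, as APLN did, and their group means lay between 0.325 and 2.29 FPKM.

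Related genes were taken from 5 lists with 73 genes in all, of which 3 lists hold genes of the apelin pathway and the other 2 hold 25 other vasoactive peptides and receptors and 16 pluripotency and endoderm genes. Of these, 49 passed the filter, and by limma (adjusted p under 0.01) 10 were higher and 5 lower in EWSR1::FLI1 low, beside 4.51% and 3.37% of all genes tested. Of these 15 calls, 5 were in the pathway lists, and 6 and 4 in the other 2. The median log2 difference of the 49 genes was 0.38. By list it was 0.30 (processing and breakdown), -0.32 (coupling), 0.63 (outputs and regulators), 1.00 (vasoactive) and 0.45 (pluripotency and endoderm). Of the 15 calls, those of MME, EPAS1 and ADM held in each of 14 alternative settings, and the other 12 were lost in 1 to 8 of them. Among the called genes, EPAS1, EDN1 and LEFTY2 had means under 0.5 FPKM before knockdown. Like APLN, they passed the filter only through their values after it. So did KLF4, EDNRB, NPPC, BDKRB1 and LEFTY1, tested without a call. Genes let in this way have a higher mean FPKM after knockdown by construction. They raise the medians of the outputs, vasoactive and pluripotency lists and that of the 49 genes. In the other direction, KLKB1 and LIN28A had means just under 0.5 FPKM after knockdown. The medians are therefore no result about the lists. The list of endothelial markers bears on the listed genes too, since several of them are known from endothelium. Its summed level was 41.6 to 49.0 FPKM before and 69.0 to 153 FPKM after knockdown, mostly EMCN. The log2 differences of the 8 markers ran from 0.01 (TEK) to 2.52 (KDR), beside a median of -0.05 for all genes tested. After knockdown, TEK and VWF (0.07) were highest in EWSR1::FLI1 low replicate 1, the library with the raised silent genes. In EWSR1::FLI1 low replicates 2 and 3, TEK had 0.179 and 0.202 FPKM, inside its range before knockdown (0.108 to 0.300 FPKM). VWF had 0.221 and 0.0726 FPKM there, against 0.102 to 0.227 FPKM before. Of the 3 that passed the filter, KDR was higher (0.347 to 6.81 FPKM, adjusted p = 0.000108 by limma), and EMCN and PECAM1 (0.331 and 1.12 FPKM) did not pass (adjusted p = 0.0257 and 0.0333 by limma). KDR and PECAM1 also passed the filter only through their values after knockdown. The 5 not tested were TIE1 (means of 0.0876 and 0.513 FPKM), CLDN5 (0.0827 and 0.481 FPKM), CDH5 (0.195 and 0.358 FPKM), VWF (0.160 and 0.225 FPKM) and TEK (0.215 and 0.221 FPKM). The part of this in the listed genes was not tested.

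Of the 7 processing and breakdown genes, 6 were tested and 1 was called. MME, encoding neprilysin, a membrane peptidase that cleaves apelin, rose from 1.40 ± 0.483 to 16.8 ± 2.90 FPKM (SD, n = 3 per group), a log2 fold change of 2.90 (SE 0.20, adjusted p = 7.95e-05 by limma). FURIN, a proprotein convertase that cuts the ligand precursors, had means of 10.6 and 16.4 FPKM, and its log2 fold change of 0.52 did not pass (adjusted p = 0.271 by limma). Of the 15 genes for coupling and related receptors, 12 were tested, with 1 higher and 1 lower. GNAI1, an inhibitory G protein subunit through which the receptor can signal, was higher at 27.1 against 10.4 FPKM (log2 1.26, adjusted p = 0.00644 by limma). GRK5, a receptor kinase, was lower at 11.8 against 28.7 FPKM (log2 -1.21, adjusted p = 0.0026 by limma). The angiotensin receptor genes AGTR1 and AGTR2 were below the filter like APLNR, with group means of 0.266 and 0.586 FPKM and of 0.313 and 0.316 FPKM, and were not tested.

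Of 10 outputs and regulators of the pathway, 9 were tested and 2 were higher. EPAS1, which encodes HIF-2 alpha, went from 0.261 to 8.36 FPKM (log2 2.87, adjusted p = 6.09e-05 by limma), and MEF2C, a transcription factor of muscle and vessels, from 1.06 to 4.44 FPKM (log2 1.34, adjusted p = 0.00751 by limma). HIF1A, whose product is known to raise APLN in hypoxia, had means of 123 and 165 FPKM and did not pass (log2 0.38, adjusted p = 0.316 by limma). Of 14 alternative settings, HIF1A passed in 1 only, without EWSR1::FLI1 low replicate 1 (log2 0.65, adjusted p = 0.00978 by limma). In that setting 1452 genes in all were higher, against 700 in the main fit.

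The other vasoactive peptides and their receptors moved in both directions. Of 25 genes, 16 were tested, 4 were higher and 2 lower, with a median of 1.00 on the log2 scale. That median counts EDN1, EDNRB, NPPC and BDKRB1, which passed the filter only through their values after knockdown. The ligand ADM (adrenomedullin) rose from 1.5 to 33.9 FPKM (adjusted p = 3.66e-05 by limma), and EDN1 (endothelin 1) from 0.382 to 15.1 FPKM (adjusted p = 0.000211 by limma). EDNRA, an endothelin receptor gene, and RAMP1, a subunit of receptors for calcitonin gene-related peptide, rose from 6.56 to 40.2 and from 4.77 to 12.1 FPKM (adjusted p = 0.00172 and 0.00282 by limma). UTS2 (urotensin 2) and CALCB (calcitonin gene-related peptide 2), like APELA, were lower after knockdown, from 89.9 to 13.6 and from 12.9 to 3.59 FPKM (adjusted p = 0.00273 and 0.00635 by limma).

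APELA is known from pluripotent cells, so pluripotency and endoderm genes were listed as well. Of 16 genes only 6 passed the filter, and POU5F1 and NANOG did not. SOX2 and LIN28B fell from 62.3 to 20.2 and from 41.2 to 12.6 FPKM (adjusted p = 0.00207 and 0.00173 by limma), while LEFTY2 and GATA6 rose from 0.265 to 1.79 and from 0.567 to 2.06 FPKM (adjusted p = 0.00257 and 0.00337 by limma). SOX2 had 3.08 times and APELA 29.2 times the level before knockdown that it had after.

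**Figure D5:**
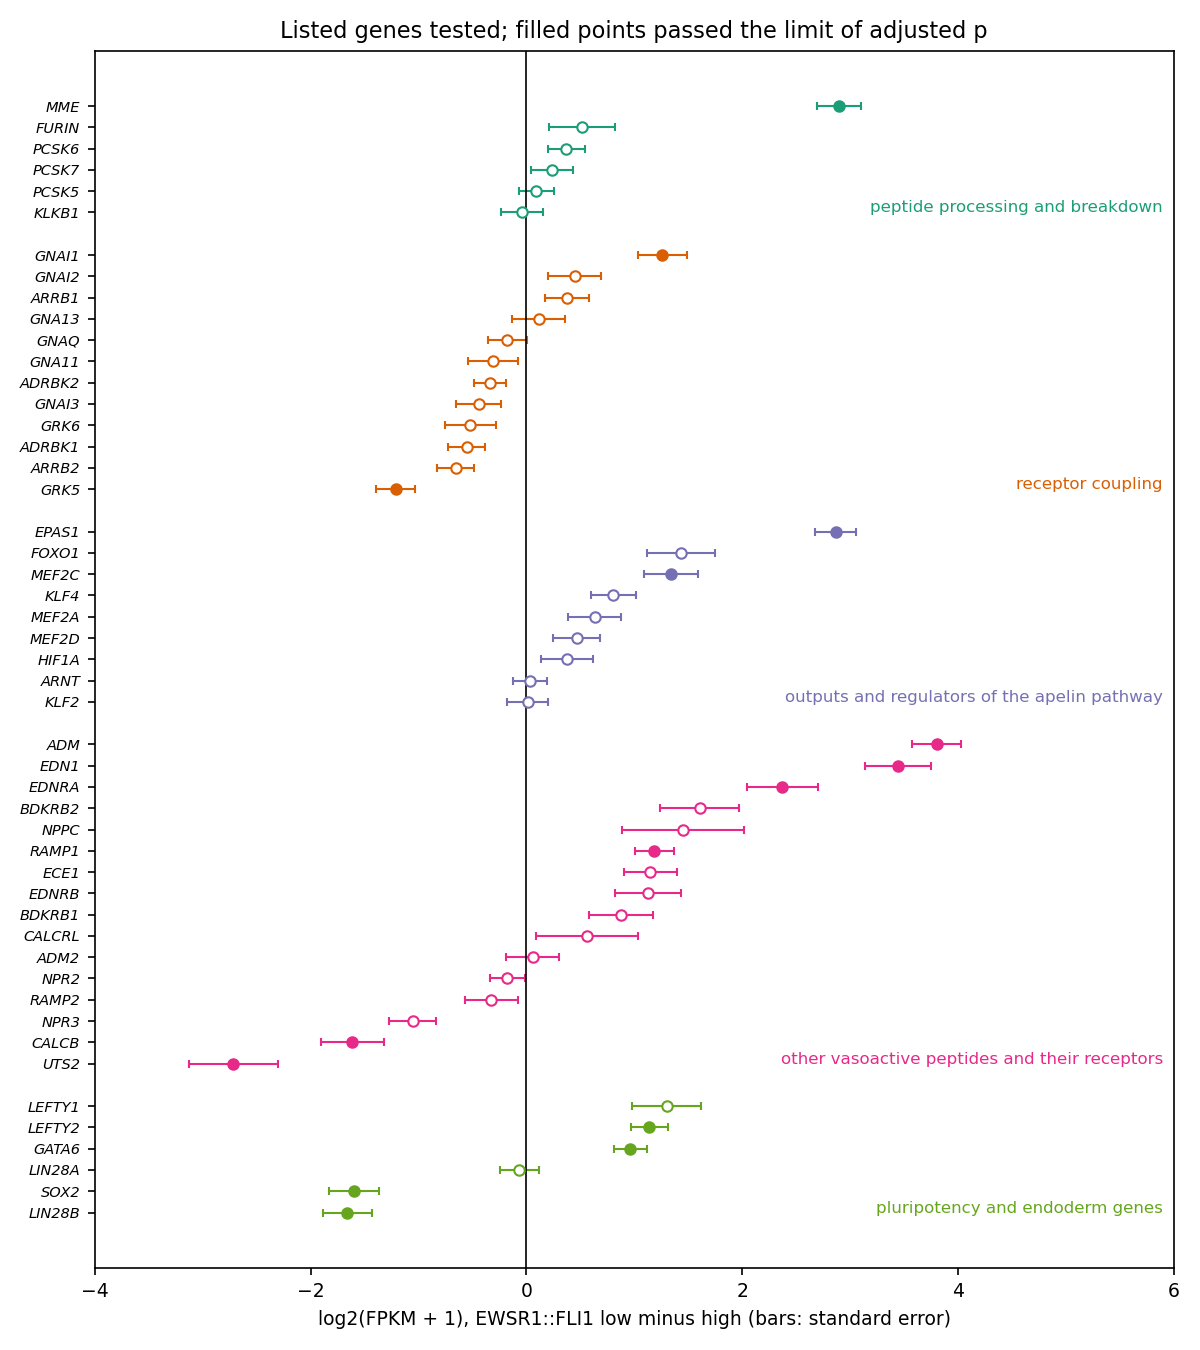
Difference between EWSR1::FLI1 low and EWSR1::FLI1 high of the 49 listed genes tested, on the log2(FPKM + 1) scale, grouped by list, with bars for the standard error of the limma fit. Filled points are the 15 genes with an adjusted p under 0.01, of which 10 lie to the right of 0 and 5 to the left, and open points are the other 34.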

How the data were processed

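RNAseq libraries were made from rRNA-depleted total RNA of 6 A673/TR/shEF samples, 3 per group, assigned by their labels. Per the labels' processing notes, which name tools without roles, the authors used STAR 2.5.0b, bedtools 2.17.0, Cufflinks 2.2.1 and DESeq2 1.6.3 with GRCh37. Whether strand was used in counting is not given in the sources used here. The values deposited by the authors are FPKM for each library, unpooled. The authors also deposited their own comparison, whose mean signal per gene (the mean normalized count) was used here and whose fold changes and p-values were not.

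FPKM multiplied by the ratio of that mean to the gene's mean FPKM, and by the size factor of the library, gave whole reads for 100% of values within 0.1 reads. A library held 6980361 to 16658933 reads on genes. The floor of detection was set at 3 reads, which covers counting error only. Chi-square per degree of freedom between replicates was 4.25 to 6.27 in the EWSR1::FLI1 high and 20.2 to 31.5 in the EWSR1::FLI1 low group, so each library was 1 replicate.

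Genes with a mean of at least 0.5 FPKM (15504) were fitted with limma 3.58.1 in R 4.3.3 (lmFit, eBayes with trend) on log2(FPKM + 1), with Benjamini-Hochberg adjustment over all of them and a limit of 0.01. Simulated data were also fitted, with independent normal noise and an equal spread in both groups. Of 200 genes changed by 2 on the log2 scale, 79% were recovered among 15504 genes, and 2 unchanged genes were called. The real groups spread unequally, by the chi-square above, so these rates need not hold for them. Other steps used Python 3.11.15, pandas 2.3.3 and matplotlib 3.10.9.

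APELA, APLN, APLNR and the gene lists were chosen with earlier results of these data known. Named were the 3 genes, list genes past the limit, FURIN, HIF1A, AGTR1 and AGTR2, the 5 genes with the highest correlation with each ligand, and the 2 nearest protein-coding genes on each side. POU5F1, NANOG, some markers and FLI1 were named beside this rule, after their values were seen. The genome was scanned for runs of at least 4 GGAA copies on either strand. The olfactory receptor reference and the 5000 bp window were chosen after the data were seen. Alternatives were a replicate block, a pseudocount of 0.1, no filter, a mean of at least 1 FPKM, eBayes without trend, scaling by median ratios or by quantiles, limma-voom on the recovered reads, and each library left out in turn.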

Additional observations from a re-analysis of the deposited data

How the results depend on the processing

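APELA, APLN and APLNR kept the direction of their differences under every alternative run for them. The log2 difference of APELA ranged from -3.61 to -3.36 with 1 library left out, and became -4.71 with a pseudocount of 0.1 and -4.93 with limma-voom. For APLN it ranged from 0.38 to 0.63, and became 1.17 and 1.29 under the same 2 alternatives. For APLNR it ranged from 0.12 to 0.26 with 1 library left out, and became 0.60 with a pseudocount of 0.1 and 0.09 with quantile normalization. Counts of calls moved more. With 1 library left out, 287 to 1452 genes were higher and 156 to 726 lower, against 700 and 522. The highest count of genes higher, 1452, came without EWSR1::FLI1 low replicate 1, and that of genes lower was 726 without it. Leaving out an EWSR1::FLI1 high library gave 374, 287 and 322 higher and 200, 157 and 156 lower for replicates 1, 2 and 3. Without EWSR1::FLI1 low replicate 2 there were 279 lower, and without replicate 3 there were 419 higher beside 691 lower. The other counts of genes higher and lower were 89 and 35 without the filter and 1245 and 1146 with limma-voom, and genes lower numbered 1000 with quantile normalization and 813 under median-ratio scaling. Without the filter the coupling list had 0 genes higher and 0 lower, the outputs 1 higher, the vasoactive list 1 higher and 0 lower, and the pluripotency list 0 higher and 0 lower. With quantile normalization the coupling list had 2 higher and 2 lower, the outputs 1 higher and the vasoactive list 1 lower, and with median-ratio scaling the outputs had 1 higher. With 1 library left out the ranges were 0 to 2 higher and 0 to 1 lower for coupling, 1 to 5 higher for outputs, 2 to 6 higher and 0 to 3 lower for the vasoactive list, and 0 to 3 higher and 0 to 2 lower for the pluripotency list. The causes were not tested. The calls of MME, EPAS1 and ADM held in all 14 alternatives, and those of the other 12 called genes were lost in 1 to 8 of them, most often for MEF2C. The calls of GNAI1, GRK5, MEF2C, LEFTY2 and GATA6 were lost without any 1 of the 3 EWSR1::FLI1 high libraries, those of CALCB, UTS2, SOX2 and LIN28B without replicate 2 or 3, that of RAMP1 without replicate 1 or 2 and that of EDNRA without replicate 2. Without EWSR1::FLI1 low replicate 2 the calls of GNAI1, CALCB and GATA6 were lost, and without replicate 3 those of GNAI1, MEF2C, CALCB and RAMP1, all with fewer samples in the fit. HIF1A passed only without EWSR1::FLI1 low replicate 1 (log2 0.65, adjusted p = 0.00978 by limma). Of the neighbours, the call of MARCH1 was lost in 6 alternatives and SSRP1 gained one in 5. Signs changed only for genes without a call, TRIM61 (0.039 with median-ratio scaling, 0.0051 with limma-voom and -0.18 to 0.13 with 1 library left out), OCRL (-0.077 to 0.13) and LRRC55 (-0.36 to 0.011). With a replicate block in the fit there were 916 genes higher and 786 lower. Deviations of libraries with equal numbers correlated at 0.27, 0.09 and 0.12, and those with unequal numbers at -0.29 to 0.19. Whether equal numbers are pairs was not settled. The labels do not say what they share, and the main fit took no pairs. At 4 to 14 reads per library, depth limits what can be said of APLNR.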
